A study of Rattus norvegicus with 352 samples.

Results

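Oxt, Avp, Pmch, Hcrt, Trh, Crh, Agrp, Cartpt and Gal encode precursors of peptides made by neurons of the hypothalamus. They were taken by name from a table of 38354 genes, and all 9 were in it and passed the minimum level for testing, as did 16683 genes in all. Naive rats of the heterogeneous stock, an outbred population bred from inbred founder strains, received no treatment, and polyA RNA of a whole brain hemisphere was sequenced from each. All samples form 1 group, and age and sex are not given in the labels used here, so the design asks how far each gene differs between rats and which genes move together. The labels do not state that a library is a rat of its own, though it is taken so here, and the p-values rest on the variation from library to library, which may in part be technical.

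Oxytocin and vasopressin are made by magnocellular neurons of the paraventricular and supraoptic nuclei, which release them into the blood from the posterior pituitary. Melanin-concentrating hormone and the orexins come from separate neurons of the lateral hypothalamus that act on feeding and arousal, and the releasing hormones encoded by Trh and Crh drive the thyroid and adrenal axes through the anterior pituitary. Agouti-related peptide of the arcuate nucleus promotes feeding, the peptide from Cartpt restrains it, and galanin is made in several hypothalamic groups and in brainstem neurons. Trh, Crh, Cartpt and Gal are also made outside the hypothalamus, so their level in a hemisphere sums several sources. In bulk tissue, fewer cells of a type and less RNA per cell cannot be told apart.

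Genes are placed by RefSeq on the build GRCr8. Oxt (gene ID 25504) is at chr3:138235754-138236594, Avp (24221) at chr3:138246544-138248522, Pmch (24659) at chr7:24399404-24400720 and Hcrt (25723) at chr10:86190289-86191524. Trh (25569) is at chr4:126299236-126301762, Crh (81648) at chr2:104059184-104061048, Agrp (25582) at chr19:50357899-50396758, Cartpt (29131) at chr2:32989215-32991794 and Gal (29141) at chr1:210079709-210084572. Oxt and Avp lie side by side on chromosome 3 in opposite orientation. Their start sites are 12768 bases apart and their facing ends 9949 bases apart. The 250 bases before the start sites of these neighbours and of Cartpt and Trh, whose levels moved closely together, are shown from RefSeq on the build GRCr8, 5′ to 3′ on each gene's own strand. The windows are chr3:138235504-138235753 on the plus strand for Oxt, and on the minus strand chr3:138248523-138248772 for Avp, chr2:32991236-32991485 for Cartpt and chr4:126301763-126302012 for Trh. The Cartpt window precedes the start site of the RefSeq promoter row, which lies inside the gene model and not at its outer end. Capitals mark matches, on either strand, to TGACGTCA and the shorter TGACG (cAMP response element), CACGTG (an E-box), AGGTCA (a nuclear receptor half-site), TATAAA, ATGCAAAT (an octamer) and TAATTA (a homeodomain core).
Oxt: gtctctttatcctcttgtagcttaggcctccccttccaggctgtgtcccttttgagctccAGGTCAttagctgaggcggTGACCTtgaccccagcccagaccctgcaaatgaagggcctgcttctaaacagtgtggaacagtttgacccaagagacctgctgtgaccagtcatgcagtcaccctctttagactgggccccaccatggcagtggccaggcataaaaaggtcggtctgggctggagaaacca
Avp: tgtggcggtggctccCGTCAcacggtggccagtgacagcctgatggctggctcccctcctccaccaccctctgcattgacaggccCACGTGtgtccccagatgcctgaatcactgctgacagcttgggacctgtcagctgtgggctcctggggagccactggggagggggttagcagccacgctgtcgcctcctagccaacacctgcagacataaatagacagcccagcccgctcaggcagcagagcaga
Cartpt: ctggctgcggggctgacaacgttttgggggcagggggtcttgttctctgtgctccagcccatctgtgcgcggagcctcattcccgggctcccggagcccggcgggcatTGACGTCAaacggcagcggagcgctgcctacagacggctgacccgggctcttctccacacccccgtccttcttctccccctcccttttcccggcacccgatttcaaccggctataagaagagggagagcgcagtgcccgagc
Trh: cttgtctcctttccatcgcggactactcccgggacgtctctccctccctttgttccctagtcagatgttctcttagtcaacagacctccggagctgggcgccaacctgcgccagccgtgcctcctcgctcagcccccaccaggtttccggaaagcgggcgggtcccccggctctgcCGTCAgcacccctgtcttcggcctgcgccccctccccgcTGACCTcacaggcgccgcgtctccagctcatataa
The Cartpt window held TGACGTCA. This motif was in 1.59% of the 33469 promoter windows of the same length. TGACG, which TGACGTCA contains on both strands, was in the windows of Avp, Trh and Cartpt and in 18.2% of all windows. AGGTCA occurred at 2 places in the Oxt window, in that of Trh, and in 14.1% of all. CACGTG was in the Avp window and in 5.59% of all. TATAAA (12.9%), ATGCAAAT (1.56%) and TAATTA (4.86%) were in none of these 4 windows. A match describes letters and not a bound site.

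Oxt, Avp, Pmch, Trh and Cartpt differed between hemispheres more than most genes of their level, and Hcrt, Crh, Agrp and Gal did so less or not at all. Levels are log2(CPM + 1), where CPM scales a library's estimated counts to a common total, and are given as mean ± SD over all libraries analysed. Spread is a gene's SD over the value of a lowess curve, fitted to all tested genes, at its mean level. It reached 2 times the trend for 5 of the 9 genes, against 5.22% of all tested genes. The 9 genes were chosen with earlier results of these data known, so this comparison is a description.

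Oxt ranged from 0 through a median of 3.60 to 4.65 (mean 3.54 ± 0.48), a spread of 3.12 times the trend. Avp ranged from 0.32 through 3.55 to 4.67 (mean 3.54 ± 0.41), or 2.68 times the trend. Between the 5th and 95th percentiles, Oxt spanned 2.95-fold and Avp 2.56-fold in CPM. Both hormone genes had their lowest level in the same library, called library A here, and their highest in different ones.

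Pmch, the precursor of melanin-concentrating hormone, ranged from 0.32 through 4.26 to 4.97 (mean 4.23 ± 0.34). Its spread of 2.70 times the trend was 2.14 times without library A, the library in which Oxt was not detected. Hcrt, the orexin precursor, ranged from 0.32 through 1.90 to 2.56 (mean 1.87 ± 0.31), 1.37 times the trend, and sampling of counts would give 21.3% of its variance. Pmch and Hcrt also had their lowest level in library A, and Hcrt spanned 2.64-fold between the 5th and 95th percentiles in CPM.

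Trh, the thyrotropin-releasing hormone precursor, ranged from 1.51 through 3.08 to 5.41 (mean 3.10 ± 0.45), 2.59 times the trend. Crh, the corticotropin-releasing hormone precursor, ranged from 1.61 through 2.32 to 3.02 (mean 2.33 ± 0.25), 1.19 times the trend. Between the 5th and 95th percentiles Trh spanned 2.87-fold and Crh 2.03-fold in CPM.

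Cartpt ranged from 1.66 through 3.39 to 4.08 (mean 3.32 ± 0.39), 2.39 times the trend. Agrp ranged from 0.90 through 1.48 to 2.19 (mean 1.48 ± 0.21), 0.904 times the trend, and Gal from 1.10 through 1.99 to 2.63 (mean 1.97 ± 0.27), 1.21 times. Agrp had a median of 38.5 estimated counts per library, and counting alone would give 53.4% of its variance. The share was 26.3% for Crh and 26.8% for Gal, and between 3.6% (Oxt) and 6.21% (Cartpt) for the 5 genes past 2 times the trend. No member fell into separate levels under Gaussian mixtures, with or without library A. Transcript lengths are not used here, so the members are not ordered by level.

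**Figure D1:**
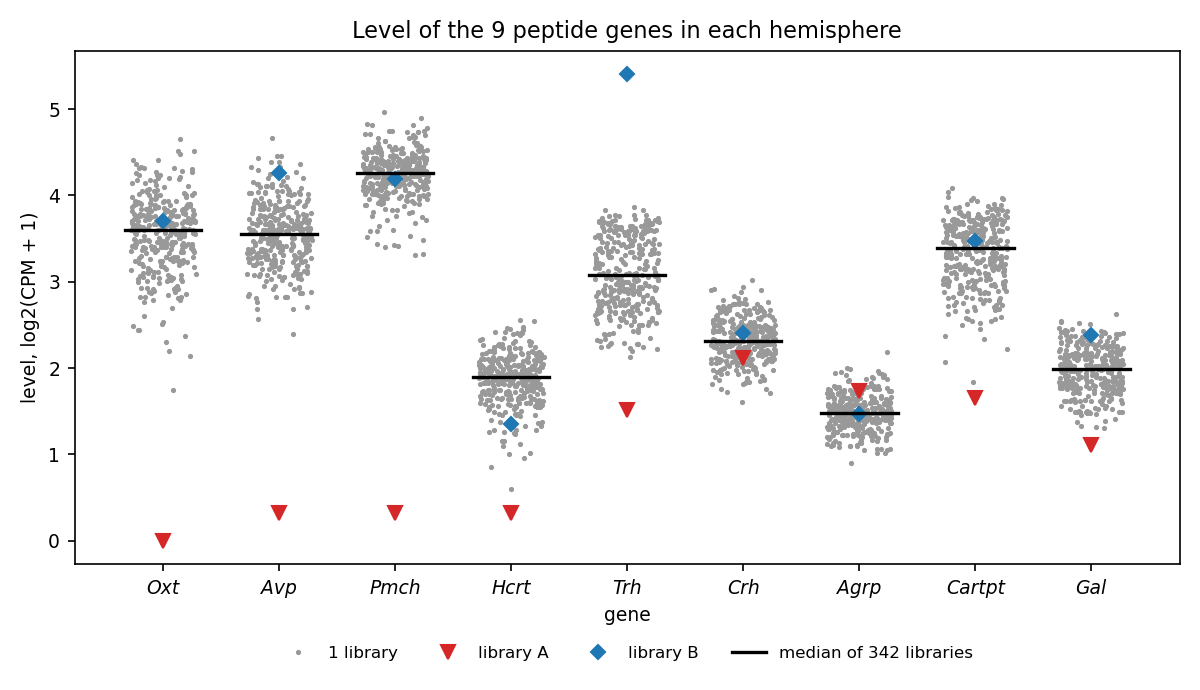
Level of each peptide gene, log2(CPM + 1), in each hemisphere (grey points, spread sideways at random within a gene), with the median as a bar. The red triangle marks library A, lowest for 7 genes but not for Crh or Agrp, and the blue diamond library B, whose Trh level of 5.41 lies above all others.

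One hemisphere, library A, stood apart. It had no Oxt count among 19996200 estimated counts, where 3 counts would be 0.15 CPM, against a median of 11.1 CPM, so its level was at least 74-fold lower by that floor. It held 5.0 counts of Avp, 4.92 of Pmch and 5.0 of Hcrt, which are 42.9, 73.7 and 10.9 times below the medians in CPM. Trh (37 counts), Cartpt (43) and Gal (23) were also at their lowest there, 4.01, 4.40 and 2.57 times below the medians.

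Crh and Agrp were not low in library A. Crh had 67 counts there, 0.842 times its median in CPM. Agrp had 46.6 counts, 1.31 times its median. In the same library the summed level of 9 monoamine neuron genes was the lowest of all, 22.5 CPM against a median of 62.8. The thalamus and habenula sum (206.9 CPM, median 288.8), the choroid plexus sum (635, median 1102) and the oligodendrocyte sum (10321, median 12486) were second lowest, the cortex and hippocampus sum (2859, median 2312) was the highest. The hypothalamic transcription factor sum was near its median (325.9 CPM, median 329.9), while the score of the 12 of these 21 genes that were tested, the mean of their z values, was the lowest of all libraries (-1.83). Some results below are also given without this library, and others were computed only with it.

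Other libraries were low or high for several members at once. In library C, Oxt (2.35 CPM), Avp (4.27), Trh (3.37) and Cartpt (2.58) were second lowest, while Crh was 0.859 and Agrp 1.26 times the median. In library D, Pmch (30.4 CPM) was the highest of all libraries, and Oxt (21.9) and Avp (21.03) the second highest. In library B, Trh was the highest of all libraries, at 41.4 CPM and 1061 counts, 5.57 times the median, Avp was 1.70 and Gal 1.42 times the median and Hcrt 0.574 times, while Oxt, Pmch, Crh, Agrp and Cartpt lay between 0.953 and 1.09 times theirs.

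The peptide genes other than Agrp rose and fell together over hemispheres, except Avp with Crh and Avp with Hcrt. Each of the 36 pairs was tested by Pearson's r and Spearman's rho with 100000 permutations, and a pair passed when the Benjamini-Hochberg adjusted p of both was under 0.05. This held for 27 pairs, 26 of them positive. How many pairs of other genes pass this test was not computed, and an absolute r of 0.13 (Trh and Agrp) was enough. By the limma call described below, which asks for an absolute r of at least 0.3, 38 of 72 pairs were called, each counted from both sides. Over all gene and member pairs that share was 10.3%. The smallest permutation p possible, 1e-05, was reached by most of the pairs named here, and the largest adjusted p of the 27 was 0.027 (rho of Avp and Trh). The first principal component of the 9 genes took 46.8% of their variance, with loadings between 0.19 (Crh) and 0.43 (Cartpt, Oxt) for 8 genes and -0.056 for Agrp.

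Oxt moved most closely with Cartpt (r = 0.74, rho = 0.68; 0.73 without library A). It also rose with Pmch (r = 0.71, rho = 0.55; 0.64 without library A), Gal (r = 0.62, rho = 0.59), Trh (r = 0.58, rho = 0.56) and Hcrt (r = 0.54, rho = 0.37). Oxt and Cartpt were positively correlated in all 7 identifier blocks, sets of at least 8 libraries whose identifiers start alike, with r from 0.30 to 0.95.

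Avp moved most closely with its neighbour Oxt. The r of Oxt and Avp was 0.52 (rho 0.39), 0.42 without library A, 0.40 without the 2 libraries farthest from the median, and from -0.34 to 0.67 within blocks. The r of Avp and Pmch was 0.44 (rho 0.23) and fell to 0.26 without library A. Avp with Cartpt (r = 0.28, 0.20 without library A), Gal (0.21, 0.15) and Trh (0.21, 0.14) also passed, with and without that library. Avp and Hcrt (r = 0.26, 0.16 without library A) did not pass because the adjusted p of rho was 0.052. With Crh the r was 0.0055 (95% interval -0.10 to 0.11).

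The 2 lateral hypothalamic genes rose together (r = 0.56, rho = 0.37), although they mark separate neurons. Within blocks the r of Pmch and Hcrt ran from -0.12 to 0.72, positive in 6 of 7. Pmch also rose with Cartpt (r = 0.59), Gal (0.46) and Trh (0.41), and Hcrt with Cartpt (0.56), Gal (0.43) and Trh (0.43).

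Trh and Cartpt formed the next closest pair (r = 0.73, rho = 0.73), with r = 0.75 without library B. Cartpt and Gal (r = 0.66, rho = 0.63) and Trh and Gal (r = 0.58, rho = 0.56) were close as well. Crh, the other releasing hormone gene, was highest with Trh (r = 0.43, rho = 0.46), a pair positive in all 7 blocks (0.39 to 0.83), and lower with Cartpt (0.32), Gal (0.24), Oxt (0.22), Hcrt (0.21) and Pmch (0.14).

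Agrp passed with Trh only, in the opposite direction and weakly (r = -0.13, rho = -0.14, adjusted p of r 0.022). Its other values of r ran from -0.11 (Cartpt) to 0.044 (Avp), and with Cartpt only rho passed (adjusted p of r 0.051). The negative signs turned positive in the values as deposited, which are not scaled for depth. The 95% interval of r with Oxt was -0.12 to 0.088. Agrp has the lowest median count and the largest counting share of the members, and its gene model spans 38860 bases, against at most 4864 (Gal) for the others, and overlaps the annotated genes Ripor1 and LOC120098617. Its estimated counts were whole within 0.02 in 3.51% of libraries, against 100% for Hcrt, Crh, Cartpt and Gal. The r of Agrp with Ripor1, which had a mean level of 6.97, was 0.02. With LOC120098617, whose mean level of 0.895 was under the minimum for testing, the r of Agrp was 0.20 (rho = 0.18). How far reads of other genes enter the Agrp value was not tested. Pmch, which overlaps Parpbp (r = 0.053), had whole counts in 3.22% of libraries, and Trh overlaps LOC134486818.

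**Figure D2:**
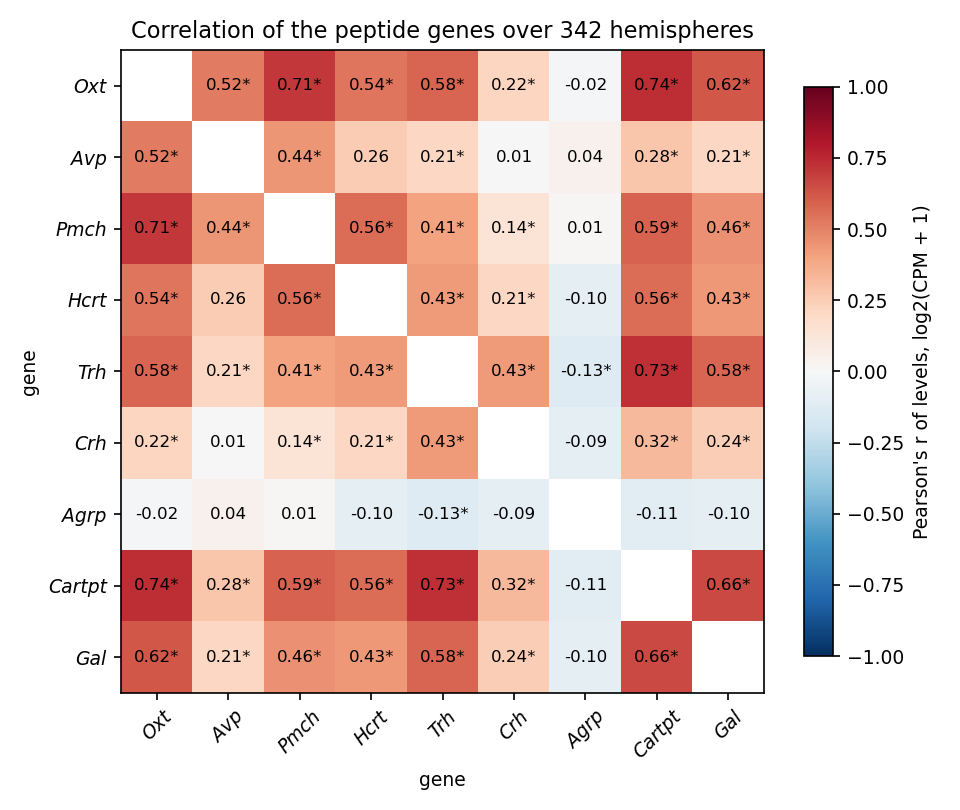
Pearson's r between the levels of each pair of the 9 genes over all libraries; colour runs from -1 (blue) to 1 (red), and an asterisk marks pairs with adjusted p under 0.05 for both r and rho. The block of Oxt, Pmch, Hcrt, Trh, Cartpt and Gal lies between 0.41 and 0.74, and the Agrp row is near 0.

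Fewer pairs passed after variation shared across the table was taken out. After the first 10 principal components of all tested genes were removed, 14 of the 36 pairs passed. The pair of Avp and Crh, which had not passed before, was among these 14 with a negative r (-0.13). Also among the 14 were Oxt and Avp (r = 0.52, rho = 0.40), Oxt and Pmch (0.56, rho = 0.38), Pmch and Hcrt (0.43, rho = 0.33) and Avp and Pmch (0.41, rho = 0.17), with library A included. Trh and Cartpt went from 0.73 to 0.17, and Oxt and Trh from 0.58 to 0.097.

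The genes that moved most like the peptide genes were found by fitting every tested gene on each member with limma, and a gene was called at an adjusted p under 0.05 and an absolute r of at least 0.3. Over all 9 members, 10.3% of gene and member pairs were called, and of the 72 pairs among the members themselves, each counted from both sides, 38 were, all higher. The share of genes called differed widely by member. It was 23.8% for Trh, 22% for Cartpt, 19.2% for Gal, 11.2% for Oxt, 6.31% for Hcrt, 4.7% for Agrp, 2.9% for Crh, 2.79% for Pmch and 0.156% for Avp, which is 26 genes.

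Calcr, the calcitonin receptor gene, was the gene most like Cartpt (r = 0.82, rho = 0.77), Oxt (r = 0.76, rho = 0.69) and Gal (r = 0.70, rho = 0.69). With Cartpt its r was 0.81 without library A and between 0.76 and 0.83 within every block. Gpx3, a secreted glutathione peroxidase gene, and the imprinted gene Peg10 came next for Cartpt (r = 0.80 for both) and for Gal (0.67 and 0.68). The limma adjusted p was 7.5e-80 for Calcr and Cartpt and at most 2.4e-43 for the others of this paragraph.

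Trh was most like the serotonergic genes. Tph2, the brain tryptophan hydroxylase gene, reached r = 0.81 (rho = 0.83, limma adjusted p = 1.9e-77), Slc6a4, the serotonin transporter gene, r = 0.80 (rho = 0.82), and Pou4f1, a habenular transcription factor gene, r = 0.78 (rho = 0.81). Within blocks the r of Trh and Tph2 lay between 0.68 and 0.87. Tph2 was also called with Cartpt, Gal, Oxt, Hcrt, Crh and Pmch, and not with Avp or Agrp. Serotonin neurons lie in the raphe nuclei of the brainstem, outside the hypothalamus, and the part of such tissue in these values was not tested.

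**Figure D3:**
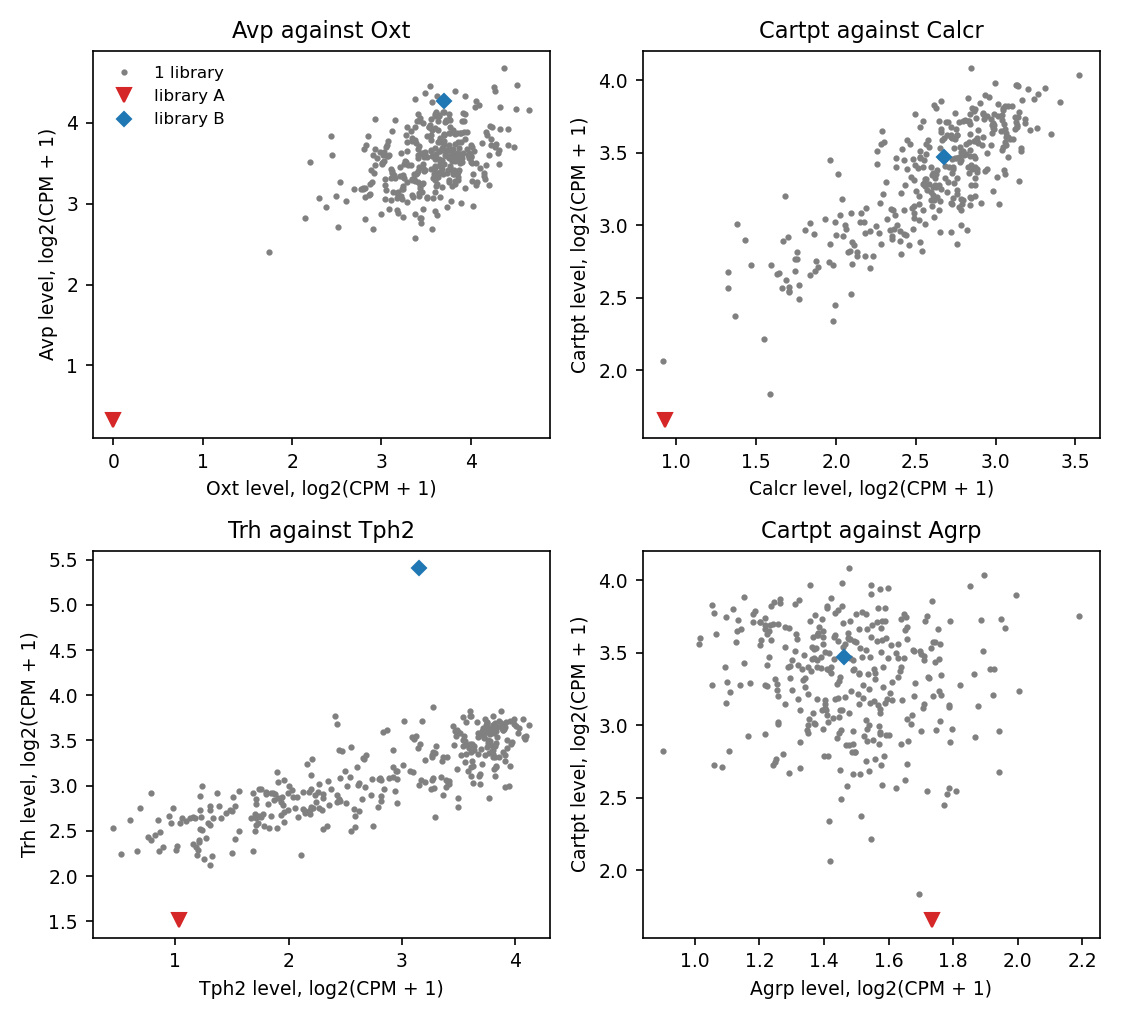
Levels, log2(CPM + 1), of pairs of genes in all hemispheres, 1 point each, with library A (red triangle) and library B (blue diamond) marked. Cartpt rose with Calcr (r = 0.82) and Trh with Tph2 (0.81), Avp and Oxt rose together with more scatter (0.52), and Cartpt and Agrp showed no clear slope (-0.11).

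For Pmch, the genes of largest r after Oxt were Calcr (0.62) and Th (0.61, 0.51 without library A), the tyrosine hydroxylase gene of dopamine neurons. Hcrt was most like Tmem130 (r = 0.57), Pmch (0.56) and Th (0.56). Avp came after Oxt and Pmch to Tle5 (r = 0.36), a transcriptional co-regulator gene. Crh was most like Pja1 (r = 0.47), a ubiquitin ligase gene, and Vgf (r = 0.46), an activity-regulated secretory protein gene. For Agrp the 3 genes were Nktr (0.42), Ccdc30 (0.42) and Gba2 (0.42), none of which is a peptide gene, and 775 of its 784 called genes were higher with it.

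The genes of most negative r were the same for several members. Each of these signs is that of values scaled for depth and turned positive in the values as deposited. Gria3, an AMPA receptor subunit gene, was lowest with Trh (r = -0.67), Cartpt (-0.63) and Gal (-0.60). Prkcb, a protein kinase C gene, was lowest with Oxt (-0.55) and Hcrt (-0.46), and Sv2b, a synaptic vesicle gene, with Pmch (-0.45). Mapkbp1 was lowest with Crh (-0.47), Adam22 with Avp (-0.33) and Eef1a2 with Agrp (-0.32).

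Regulators and partners of the peptides were counted by list. The lists, too, were chosen with earlier results of these data known. The 12 hypothalamic transcription factor genes tested were called in 24 pairs higher and 3 lower, or 25% of their pairs with the members. Over all genes 4.31% of pairs were higher and 6.03% lower. Otp, which specifies peptide neurons of the paraventricular and arcuate nuclei, rose with 7 members, most with Cartpt (r = 0.78, rho = 0.76). Nkx2-1, a factor of the ventral hypothalamus, reached 0.62 with Cartpt, and Foxb1, a mammillary factor, 0.50 with Trh. The mean levels of Otp (1.26), Nkx2-1 (1.30) and Foxb1 (1.03) were close to the minimum of 1 for testing. The 3 lower pairs were all of Arnt2, which is also expressed widely in the forebrain. Sim1 and 8 further listed factors had a mean level under 1 and were not tested.

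Peptide processing genes were called in 22 pairs (17.5%), all higher, where 4.31% of pairs over all genes were higher. Scg2, a granin of dense-core vesicles, rose with 7 members, up to r = 0.64 with Cartpt, and Chga with 6, up to 0.59 with Trh. Vgf was called with Crh and Hcrt. The prohormone convertase genes Pcsk1 and Pcsk2, Cpe and Pam, which cut and amidate the precursors, were called with no member.

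Receptors of the peptides were called in 8 pairs (6.84%), against 10.3% of all genes. Of these 8 pairs, 6 were of Avpr2, the kidney-type vasopressin receptor gene, lower with Trh (r = -0.47), Cartpt, Gal, Oxt and Hcrt and higher with Agrp. Galr1 (r = 0.35) and Hcrtr1 (0.31) were higher with Trh. Oxtr, Avpr1a, Mchr1, Hcrtr2, Trhr, Crhr1, Crhr2 and Mc4r were called with no member, so no receptor gene was called with its own ligand's gene. Among binding and degrading proteins, Trhde, which cleaves thyrotropin-releasing hormone, was lower with Cartpt (r = -0.43), Trh, Gal and Oxt, and Crhbp and Lnpep were not called. The negative r of Avpr2 with Trh and of Trhde with Cartpt, and those of Vip, Thrb, Npas2, Per3 and Hlf given next, were positive in the values as deposited.

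The 8 other hypothalamic peptide genes tested were called in 12 of 72 pairs (16.7%), against 10.3% of all gene and member pairs. Pomc, the melanocortin precursor made in arcuate neurons and in the pituitary, rose with 6 members, most with Cartpt (r = 0.63, rho = 0.75). Adcyap1 reached 0.37 with Cartpt and Vip -0.35 with Trh, and Nts was called as well. Npy, which arcuate neurons make together with Agrp and which cortical interneurons also make, was called with no member.

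Receptors for hormones and satiety signals were called in 5 of 99 pairs (5.05%), 4 of them the thyroid hormone receptor gene Thrb (r = -0.40 with Gal), lower also with Trh, Cartpt and Oxt. The fifth was Prlr, the prolactin receptor gene, higher with Gal (0.31). Clock genes were called in 12 pairs (8.89%). Over all genes 10.3% of pairs were called. Npas2 was lower with Trh (r = -0.53), and Per3 (-0.41) and Hlf (-0.35) were lower with Crh. Glucocorticoid-responsive and immediate early genes were called in 0 pairs each by limma, with 26 and 8 pairs at an unadjusted p under 0.05. By permutation 1 of 9 members, Gal, passed with the glucocorticoid score and 0 of 9 with the immediate early score.

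**Figure D4:**
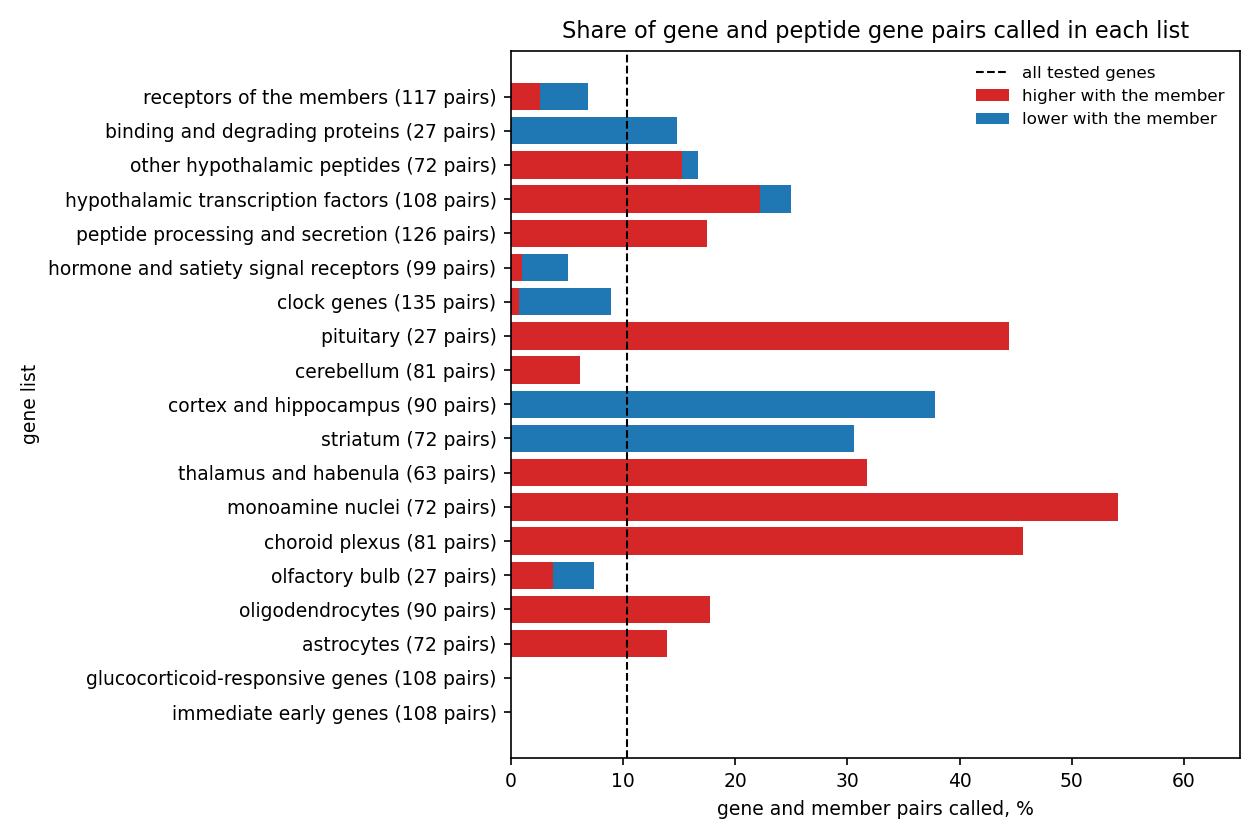
Percentage of gene and member pairs called in each gene list, split into pairs higher (red) and lower (blue) with the member; the dashed line is the 10.3% of all tested genes. Monoamine, choroid plexus and pituitary lists lie highest, cortical and striatal lists are all lower, and the glucocorticoid-responsive and immediate early lists are at 0. The pituitary list has 3 tested genes, Pomc among them. Without library A, called pairs went from 37 to 29 of 81 for choroid plexus, from 12 to 11 of 27 for pituitary and from 34 to 29 of 90 for cortex and hippocampus.

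The members were also set against scores of brain regions, cell types and states, each the mean z value of its list. Over 13 scores and 9 members, 72 pairs (61.5%) passed, 53 of them positive. The share of other genes that pass with these scores was not computed. An absolute r of 0.12 (Agrp with the thalamus and habenula score) was enough to pass, so these counts do not set the members apart from other genes. The hypothalamic transcription factor score rose with all members but Agrp, most with Cartpt (r = 0.67, rho = 0.61), Oxt (0.63, rho = 0.55) and Trh (0.55, rho = 0.53). With Crh the r of this score was only 0.13 (permutation adjusted p 0.031), and from -0.27 to 0.26 within blocks. The labelled tissue held the other markers too: no listed marker of cortex, striatum, choroid plexus or glia was under the minimum level, while 7 of 10 pituitary genes were, and Pomc is in that list too.

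The monoamine score rose with 7 members, most with Cartpt (r = 0.75, rho = 0.78), Trh (0.74, rho = 0.80), Gal (0.66) and Oxt (0.60), and not with Avp. The thalamus and habenula score reached 0.58 with Cartpt and 0.55 with Oxt. The pituitary score reached 0.57 with Cartpt and 0.51 with Oxt, and the summed level of its genes ran from 2.35 CPM through a median of 6.63 to 1585. The choroid plexus score reached 0.61 with Trh and 0.56 with Cartpt, and the astrocyte score 0.55 with Trh.

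Forebrain scores ran the other way in values scaled for depth. The pairs named with values in the next sentence were positive in the values as deposited. The cortex and hippocampus score fell with 7 members, most with Trh (r = -0.65), Cartpt (-0.60), Gal (-0.57) and Oxt (-0.49), and the striatal score with Trh (-0.56), Cartpt (-0.49), Gal (-0.47) and Oxt (-0.32). Agrp had the opposite signs to this pattern, lower with the astrocyte, choroid plexus, oligodendrocyte and monoamine scores and higher with the striatal score, each at an absolute r under 0.3. The levels are shares of each library, so a smaller share of 1 region raises the others, and the part of tissue shares in the members' spread was not tested.

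**Figure D5:**
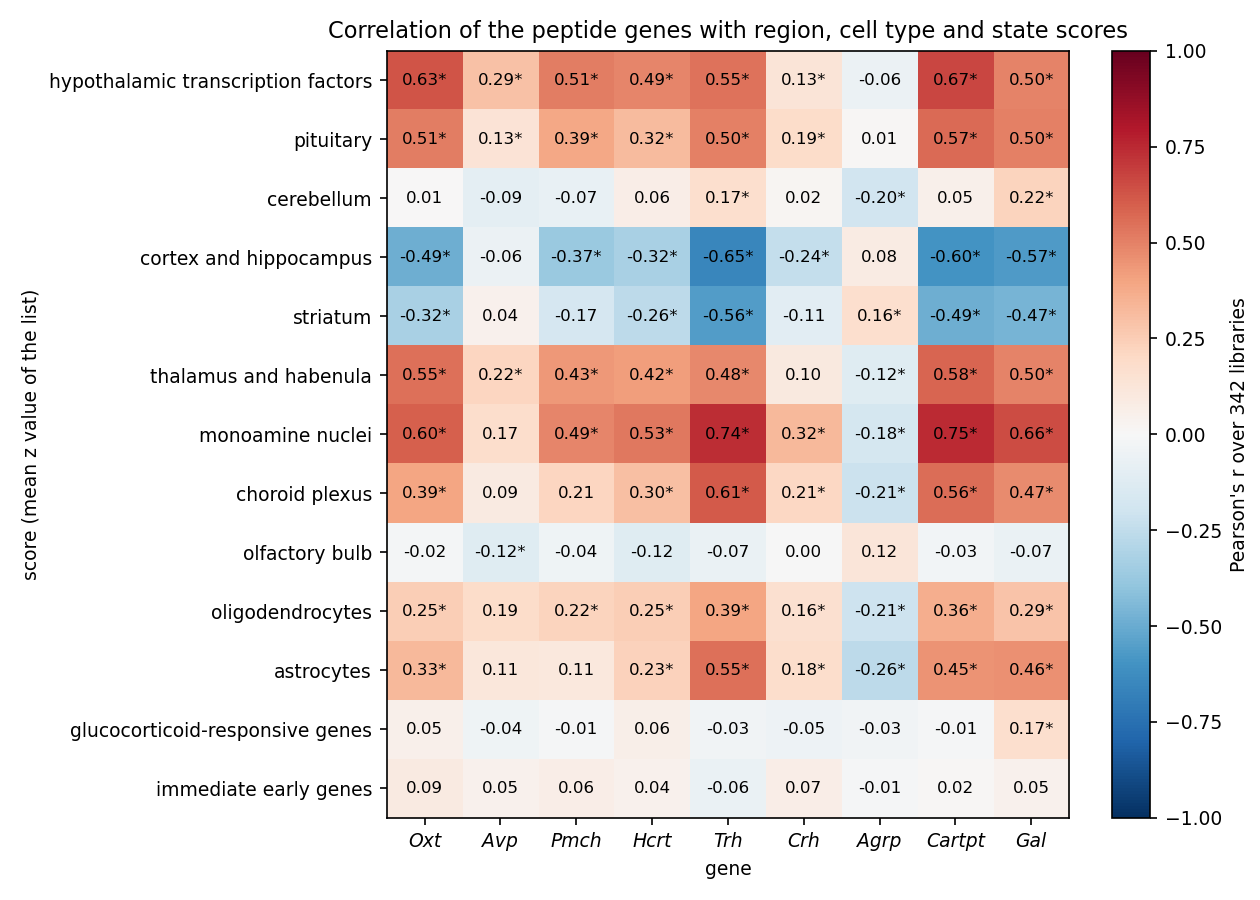
Pearson's r between each peptide gene (columns) and the score of each marker list (rows) over all libraries, from -1 (blue) to 1 (red); an asterisk marks adjusted p under 0.05 for both r and rho. The hypothalamic row is past the threshold and positive for 8 genes, the pituitary row for 8 (without library A no longer for Avp) and the monoamine row for 7, the cortical row is past it and negative for 7 (positive in the values as deposited for the 6 genes with an absolute r of at least 0.3), and Agrp passed in none of the hypothalamic, pituitary and cortical rows.

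The hypothalamic factor and monoamine scores were themselves correlated (r = 0.62, rho = 0.58), so both were entered together for each member, a fit chosen after the pair values were seen. For Avp the standardised slope was 0.30 ± 0.066 (SE) on the hypothalamic score and -0.012 ± 0.066 on the monoamine score. These fits include library A and were not made without it. Taken singly, the r of Avp went from 0.29 to 0.21 with the hypothalamic score without library A. With the monoamine score it went from 0.17 to 0.052. Oxt had slopes of 0.41 ± 0.05 and 0.35 ± 0.05. For Trh they were 0.15 ± 0.046 and 0.65 ± 0.046, for Gal 0.15 ± 0.051 and 0.56 ± 0.051, and for Cartpt 0.33 ± 0.042 and 0.55 ± 0.042. Pmch had 0.33 ± 0.057 and 0.28 ± 0.057, and Hcrt 0.27 ± 0.057 and 0.37 ± 0.057. The slope of Crh was negative on the hypothalamic score (-0.12 ± 0.065) and 0.39 ± 0.065 on the monoamine score. Agrp had 0.079 ± 0.068 and -0.23 ± 0.068. The R-squared of this fit was 0.63 for Cartpt, 0.56 for Trh, 0.47 for Oxt and 0.086 for Avp. With the monoamine score as a covariate and library A included, 18 of the 36 member pairs passed. Among them were Oxt and Avp with r = 0.53 and Trh and Cartpt with 0.39.

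The members were then compared between identifier blocks and with depth. Limma's F-test between 7 blocks called 0 of 9 members, against 8.21% of all genes; 1 member, Pmch, had an unadjusted p under 0.05 (0.013, adjusted 0.094), with block means from 4.18 to 4.52. Without library A, Pmch was called (adjusted p 0.0091). Library totals ran from 5418230 to 42980793 estimated counts (median 21881769), and the r of a member with log2 of the total lay between -0.064 (Avp) and 0.07 (Gal), none past the threshold. With the number of genes above 0, rho passed for Trh (-0.16), Crh (-0.18) and Agrp (0.20) while r did not.

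Genes next to the members on the chromosome were counted in the same way. Of the tested genes whose start lies within 500 kb of a member's, 12 (7.19%) were called with that member, against 10.3% of all gene and member pairs, or 9 without library A, with the Oxt and Avp pair counted from both sides. For Avp, Oxt was the only one, 1 of 21 against 0.156% of all genes. Beside Avp, Oxt had Lzts3 (r = -0.37), Pced1a (-0.33), Slc4a11 (-0.31) and Gfra4 (-0.30), 5 of 20 against 11.2% of all genes. Hcrt had Hap1 (r = 0.51) and Acly (0.40), 2 of 39 against 6.31%, Agrp had Slc9a5 (0.39) and Acd (0.34), 2 of 41 against 4.7%, Trh had Prickle2 (-0.40), 1 of 8 against 23.8%, and Gal had Kmt5b (-0.30), 1 of 12 against 19.2%. Pmch had none of 8 against 2.79%, Crh none of 6 against 2.9% and Cartpt none of 12 against 22%. Without library A, Slc4a11, Gfra4 and Kmt5b were no longer called.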

How the data were processed

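RNA with a polyA tail from frozen brain hemispheres of naive rats was made into directional libraries, per the labels' protocols. The submitters' processing notes name kallisto; for its version, settings and strand use, the sources used here give nothing. The authors deposited 1 table of log2 values, which are log2 of estimated counts plus 1 and are not scaled for depth. Of 352 samples in the labels, 342 have a column and form 1 group (n = 342 throughout), and the other 10 were not analysed here; 14 columns carry a name that the labels list as changed.

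Counts were recovered from the log2 values, divided by each library's total (5418230 to 42980793, median 21881769) to give CPM, and taken as log2(CPM + 1). The added 1 compresses differences between libraries for genes of low level. Tests took the 16683 genes whose mean level reached 1, and 38278 of 38354 names matched RefSeq. Spread was compared with a lowess trend of SD on mean (fraction 0.3). Member pairs, scores and depth used Pearson's r and Spearman's rho with 100000 permutations. Every tested gene was fitted on each member with limma 3.58.1 in R 4.3.3, called at an adjusted p under 0.05 and an absolute r of at least 0.3, and p-values were adjusted by Benjamini-Hochberg over all tested genes. Libraries are called brain with a number in accession order: library A is brain 191, B brain 74, C brain 323 and D brain 180. Blocks (7, with 335 libraries) are libraries whose identifiers share the first 6 characters; the labels do not say what the identifiers stand for. Python 3.11.15, numpy 2.4.6, scipy 1.17.1, pandas 2.3.3 and statsmodels 0.14.6 were used, and the fits were tested on simulated data. The members and lists were chosen with earlier results of these data known. Named genes are the members, for each member the 3 genes of largest r and the 1 of most negative r, in each list the 3 of largest absolute r among those called, and called genes within 500 kb; other list genes named were chosen after their values were seen. There were 9 kinds of alternative planned and 3 added after seeing the data (libraries A and B left out, and the monoamine score as a covariate). Intervals of r are at 95%, and the floor of 3 counts covers counting error only.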

Additional observations from a re-analysis of the deposited data

How the results depend on the processing

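No paired analysis was possible because all libraries form 1 group. Of the recomputed single values, 1169 kept direction and side of the threshold, 58 became weaker, 14 stronger and 56 reversed; score pairs with an absolute r under 0.3 were not followed across settings, a limit set after the number of reversed values had been seen. The values as deposited hold depth by construction: with them 0 members reached 2 times the trend, 100% of score pairs (61.5% in the main analysis) and 98.5% of list pairs (13.2%) passed, and r turned positive for Agrp with Oxt (0.37), Hcrt (0.44), Trh (0.40), Crh (0.53), Cartpt (0.45) and Gal (0.51), for the cortical score with Oxt (0.44), Pmch (0.59), Hcrt (0.59), Trh (0.51), Cartpt (0.58) and Gal (0.65), and for the striatal score with Oxt (0.43), Trh (0.47), Cartpt (0.55) and Gal (0.62). The same held for Prkcb with Oxt (0.42) and Hcrt (0.56), Adam22 with Avp (0.49), Sv2b with Pmch (0.59), Gria3 with Trh (0.42), Cartpt (0.49) and Gal (0.57), Mapkbp1 with Crh (0.60), Eef1a2 with Agrp (0.70), Avpr2 with Trh (0.053), Trhde with Cartpt (0.57), Vip with Trh (0.44), Thrb with Gal (0.64), Npas2 with Trh (0.39), and Per3 (0.46) and Hlf (0.67) with Crh. With the first 10 principal components removed, 14 member pairs and 0.585% of list pairs passed, and r reversed for Crh with Oxt (-0.075), Avp (-0.13), Pmch (-0.092), Agrp (0.012) and Gal (-0.0015), for Agrp with Oxt (0.059), Pmch (-0.032) and Gal (0.053), and for Prkcb with Oxt (0.062), Trhde with Cartpt (0.053), Vip with Trh (0.049) and Npas2 with Trh (0.0085); the cause was not tested. With the monoamine score as a covariate, r reversed for Agrp with Oxt (0.11), Trh (0.0039), Cartpt (0.035) and Gal (0.020) and for Crh with Avp (-0.054) and Pmch (-0.020). Pmch and Agrp reversed with a pseudocount of 0.1 (-0.0072), median ratio scaling (-0.012) and block means removed (-0.015). Without library A, Oxt and Agrp (0.0089) and Avp and Crh (-0.015) reversed and 1 member, Pmch, was called between blocks; Avp and Crh also reversed without the 5% of libraries with fewest genes (-0.021). The share of list pairs called was 10.9% at a level minimum of 3 (50 pairs against 90) and 16.5% when none was set, where the genes tested differ by construction. Counting limits Agrp, Crh, Gal and Hcrt most.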
